A study of Saccharomyces cerevisiae with 44 samples.

Results

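The comparison described here sets yeast cells that lacked KAR4 but still had STE12 against yeast cells that lacked STE12, both after 60 min of the mating pheromone alpha-factor. The kar4Δ cells have the transcription factor Ste12 without its partner Kar4, and the ste12Δ cells have KAR4 without Ste12, so the strains differ in both genes and the parts of each in a difference cannot be told apart. The libraries were chosen by their labels: 4 of the kar4 deletion strain (kar4Δ) and 4 of the ste12 deletion strain (ste12Δ), that is, 8 of the 44 samples of the series. In each group replicates 1 and 2 belonged to batch 1 and replicates 3 and 4 to batch 2, and batch was a term in the fit that gave the values below, unless another fit is named. The kar4Δ cells were strain ACY01 (kar4::KanMX), the ste12Δ cells were strain ACY02 (ste12::KanMX), and the wild type (WT) was their parent, VM05. All 3 strains are of mating type a (MATa) and, per the labels, share bar1, which removes the protease that degrades alpha-factor, the auxotrophies ade1, his2, trp1 and ura3, and cln1, cln2 and cln3 with a GAL-CLN3 construct at leu2, so that the G1 cyclin Cln3 is made only in galactose. Cells were grown at 30 °C, held in G1 for 3 h, and then harvested (0 h) or given 20 µM alpha-factor and harvested 60 min later. Each deletion is represented by 1 strain, and the labels do not say whether the 4 cultures came from separate colonies, so the p-values below measure the spread between these libraries. WT libraries of the same batches and the 0 h libraries (4 per group) are given beside the results for orientation. Batches 1 and 2 held no untreated library at 60 min. A response, that is, treated against 0 h, thus holds alpha-factor and 60 min of elapsed time together, and these cannot be told apart.

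In a cells, alpha-factor binds the receptor Ste2, and the freed G protein beta-gamma dimer Ste4-Ste18 starts a kinase cascade, held together by the scaffold Ste5, that activates the MAP kinases Fus3 and Kss1. These kinases free Ste12 from its inhibitors Dig1 and Dig2. Ste12 binds pheromone response elements, whose consensus heptamer is TGAAACA, alone or with the cell-type factor Mcm1, and switches on genes for agglutination, polarized growth, cell fusion and nuclear fusion. KAR4 is itself a Ste12 target, and its product works with Ste12 at a later class of genes that includes those for moving and fusing the nuclei (karyogamy).

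The deleted genes matched the labels. KAR4 (YCL055W, chromosome III, 27929 to 28936, R64) had 1 or 2 counts in each of the 4 kar4Δ libraries and 190 to 299 counts in the ste12Δ libraries, where its level averaged 19.1 ± 1.57 CPM, against 394 ± 76.9 CPM in WT (SD, n = 4 each; CPM, counts per M counts of the scaled library total). By pooled counts this was 94.6-fold lower in kar4Δ than in ste12Δ, with a 95% counting interval of 43.3-fold to 258-fold. STE12 (YHR084W, chromosome VIII, 274174 to 276240, R64) stood at 664, 712, 605 and 643 CPM in the 4 kar4Δ libraries and at 0.513, 0.408, 4.95 and 6.24 CPM in the 4 ste12Δ libraries, with 324 ± 19.2 CPM in WT. The ste12Δ libraries of batch 1 held 6 and 6 STE12 counts and those of batch 2 held 57 and 64, so the residual reads were unequal between batches. STE12 was also higher in kar4Δ than in WT, by 1.03 on the log2 scale (adjusted p = 0.00446). The KAR4 level of the treated ste12Δ cells was below that of WT cells that had seen no pheromone (48.8 ± 8.09 CPM at 0 h), so the ste12Δ libraries were low in both transcripts.

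The 8 libraries held 7.17 M to 12.6 M counts (M, mega), which limits the precision of genes with few counts, and pairs of libraries of one group differed by more than sampling noise. The largest share of ribosomal RNA features in a library was 8.57%. The transposon Ty3 took 3.12% to 4.45% of the counts in kar4Δ, 0.0292% to 0.0322% in ste12Δ and 7.09% to 9.35% in WT. The summed level of 4 a-cell markers (STE2, STE6, MFA1 and MFA2) was 3455 to 4246 CPM in kar4Δ, 491 to 711 CPM in ste12Δ and 3000 to 4491 CPM in WT, and all 4 were called higher in kar4Δ than in ste12Δ. The summed level of 4 markers of cells past G1 (CLB2, CDC5, CDC20 and CTS1) was 1191 to 1333 CPM in kar4Δ, 198 to 256 CPM in ste12Δ and 679 to 969 CPM in WT, and all 4 were called higher in kar4Δ. The 5 markers of meiosis (IME1, IME2, SPO13, HOP1 and DMC1) summed to 40.8 to 58.6 CPM in kar4Δ, 59.2 to 87.2 CPM in ste12Δ and 50.8 to 74.4 CPM in WT. Of these, 1 was called higher in kar4Δ than in ste12Δ and 3 lower, beside 29.8% and 36.5% of all features. The part of these differences in the results below was not tested, and in bulk RNA fewer cells of a type and less RNA per cell cannot be told apart. CLN1 and CLN2 had reads in every library (478 to 763 and 1442 to 1933 counts in kar4Δ, 1975 to 2645 and 2599 to 3071 in ste12Δ), although the labels list both genes in the genotype, and BAR1 had 0 to 2 counts.

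After alpha-factor, kar4Δ and ste12Δ differed across most of the transcriptome. Of 6161 features that passed the filter on low counts, 4084 (66.3%) were called at an adjusted p under 0.05 with the quasi-likelihood test of edgeR, 1835 of them higher in kar4Δ (29.8%) and 2249 lower (36.5%). At least 2-fold apart were 856 (13.9%), of which 501 were higher in kar4Δ (8.13%) and 355 lower (5.76%). The values of the 4 and the 4 libraries did not overlap for 3210 features (52.1%). Scaled by library totals alone in place of the trimmed mean (TMM), 844 features were called higher and 3839 lower, and of those at least 2-fold apart 323 were higher and 957 lower. That scaling moved the median of all features by -0.38 (log2), so the balance between higher and lower calls rests on the scaling, whereas the cell fusion, agglutination and alpha-specific genes below lie outside this shift. The difference between the responses of the strains to alpha-factor (treated against 0 h in kar4Δ, minus the same in ste12Δ) was called for 3013 features (48.9%), 23.1% of all features being higher and 25.8% lower. Between kar4Δ and WT after alpha-factor 2332 features (37.9%) were called, 16.8% higher in kar4Δ and 21.1% lower. Counts of called list members below are to be read beside these shares of all features. They were 29.8% higher and 36.5% lower against ste12Δ, and 16.8% higher and 21.1% lower against WT. For the difference between the responses they were 23.1% higher and 25.8% lower. Below, genes said to rise or fall were higher or lower in kar4Δ than in ste12Δ after alpha-factor, unless a change with alpha-factor is named. These genes, and those said to lie above or below WT, passed the same threshold. Each difference is a log2 fold change with its standard error (SE) after ±.

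**Figure D1:**
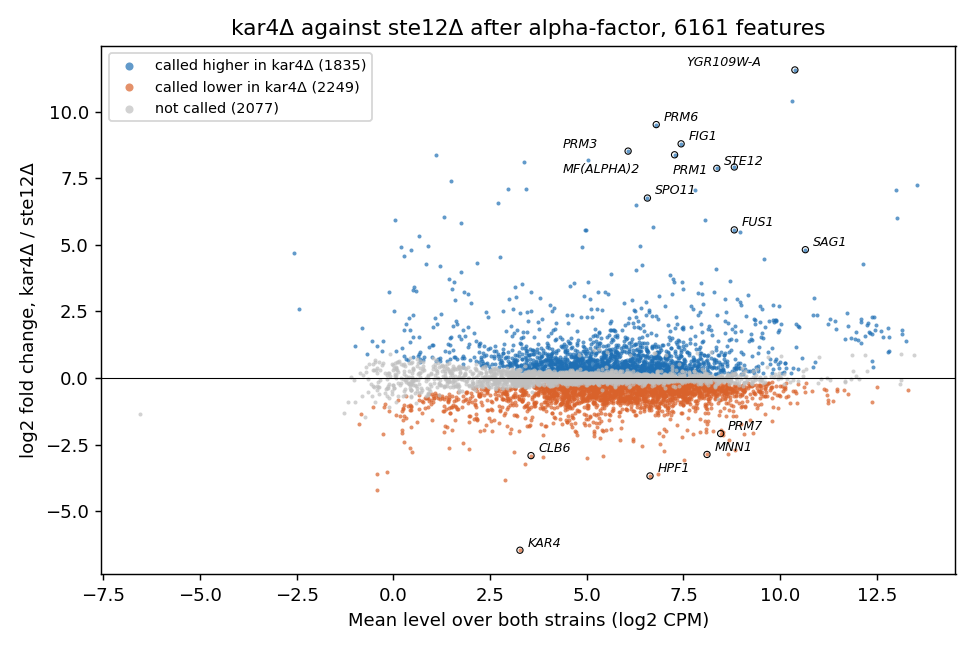
Log2 fold change of kar4Δ over ste12Δ after alpha-factor (vertical axis) against the mean level over both strains (log2 CPM, horizontal axis), 1 point per feature, blue for features called higher in kar4Δ, orange for features called lower and grey for features not called. The upper arm runs to 11.56 for a Ty3 feature and holds PRM6, FIG1, PRM3 and PRM1, while the lower side, apart from the deleted KAR4, ends at -4.18 for YIR020W-A.

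The libraries of each batch were also fitted by themselves. Among the 6112 features tested in both, the fit to batch 1 called 3578, of which 97.2% kept their sign and 80.4% also their call in a fit to batch 2. Across these 6112 features, the log2 fold changes had Pearson's r = 0.93 and Spearman's rho = 0.88, which describes these features and is no test. Most of the 12 largest values were larger in batch 1. PRM6 had 14.2 in batch 1 and 8.20 in batch 2, YGR109W-A had 13.2 and 10.4, and STE12 had 10.5 and 6.82, its residual ste12Δ reads being unequal between the batches. PRM6 had no count in the ste12Δ libraries of batch 1, so the size of its batch 1 value is set by the fit. YGR109W-A was also very low in them. MF(ALPHA)2 had 9.98 in batch 1 and 7.49 in batch 2, and ASG7 had 8.46 and 6.15. FIG1, at 9.46 in batch 1 and 8.22 in batch 2, PRM1, at 8.45 and 7.45, and FUS1, at 5.87 and 5.27, moved less. The tRNA feature tH(GUG)E2 had 8.61 in batch 1 and 5.84 in batch 2, while tI(AAU)I2 ran the other way, with 7.98 and 8.37.

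**Figure D2:**
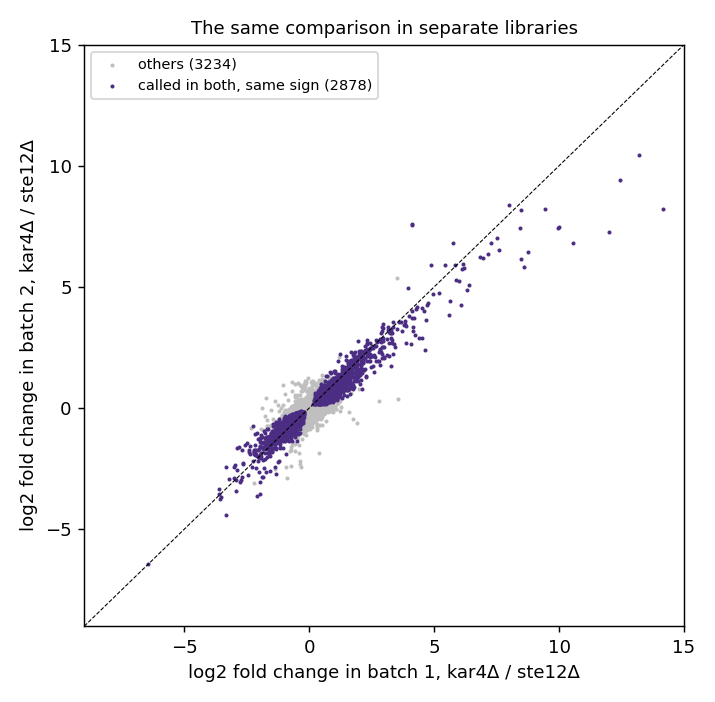
Log2 fold change of kar4Δ over ste12Δ after alpha-factor in batch 1 (horizontal axis) and in batch 2 (vertical axis), 1 point per feature, with the line of equality dashed. Purple points are the 2878 features called in both batches with the same sign, and most of the points with the largest values lie below the line. PRM6 (14.2 and 8.20), with no count in the ste12Δ libraries of batch 1, lies the farthest to the right.

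The genes that differed most in favour of kar4Δ were genes of mating cells, with Ty3 features and a few tRNA features. Among features with a mean level of at least 1 on the log2 CPM scale, the 12 largest differences in this direction were 3 Ty3 features, 3 tRNA features, the mating genes PRM6, FIG1, PRM3, PRM1 and MF(ALPHA)2, and STE12 itself. Promoters of 4 genes higher in kar4Δ and of 1 lower gene are shown because the heptamer of Ste12 can be looked for in them. These genes follow no ranking and do not stand for the genes of either direction. They are the 300 bases before the start codon on the gene's own strand, from the R64 assembly of RefSeq, which is the sacCer3 build, with TGAAACA or its reverse complement TGTTTCA in capitals. They lie at chrXIV:110617-110916 (plus strand) for PRM1, chrXIII:181076-181375 (minus strand) for PRM6, chrVII:345154-345453 (minus strand) for MF(ALPHA)2, chrIX:285000-285299 (minus strand) for PRM2 and chrXV:31607-31906 (minus strand) for HPF1.
PRM1: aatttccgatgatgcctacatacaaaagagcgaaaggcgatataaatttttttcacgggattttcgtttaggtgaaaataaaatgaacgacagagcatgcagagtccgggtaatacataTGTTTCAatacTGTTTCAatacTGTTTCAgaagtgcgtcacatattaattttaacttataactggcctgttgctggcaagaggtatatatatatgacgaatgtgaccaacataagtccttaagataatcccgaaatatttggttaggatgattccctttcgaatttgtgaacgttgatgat
PRM6: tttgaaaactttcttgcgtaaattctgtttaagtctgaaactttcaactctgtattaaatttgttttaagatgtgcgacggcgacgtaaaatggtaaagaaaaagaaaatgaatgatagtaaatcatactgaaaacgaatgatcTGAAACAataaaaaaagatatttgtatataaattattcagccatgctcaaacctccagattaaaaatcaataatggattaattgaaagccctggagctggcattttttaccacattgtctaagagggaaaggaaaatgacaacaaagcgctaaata
MF(ALPHA)2: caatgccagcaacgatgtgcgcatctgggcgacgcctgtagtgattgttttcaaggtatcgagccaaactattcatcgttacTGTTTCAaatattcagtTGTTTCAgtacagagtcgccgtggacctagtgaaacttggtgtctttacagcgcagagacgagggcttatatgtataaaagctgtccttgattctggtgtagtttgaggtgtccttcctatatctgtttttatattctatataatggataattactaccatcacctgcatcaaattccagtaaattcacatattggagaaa
PRM2: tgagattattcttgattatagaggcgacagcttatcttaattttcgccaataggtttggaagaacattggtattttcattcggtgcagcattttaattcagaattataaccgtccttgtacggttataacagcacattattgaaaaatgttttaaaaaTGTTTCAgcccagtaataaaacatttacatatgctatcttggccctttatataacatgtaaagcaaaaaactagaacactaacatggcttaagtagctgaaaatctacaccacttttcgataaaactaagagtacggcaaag
HPF1: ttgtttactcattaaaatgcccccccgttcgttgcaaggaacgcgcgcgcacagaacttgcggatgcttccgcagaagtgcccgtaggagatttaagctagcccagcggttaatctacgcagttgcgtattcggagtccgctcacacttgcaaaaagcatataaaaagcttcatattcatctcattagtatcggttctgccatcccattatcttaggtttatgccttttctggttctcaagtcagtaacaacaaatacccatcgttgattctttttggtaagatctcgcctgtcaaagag
The heptamer, on either strand, was present 3 times before PRM1, 2 times before MF(ALPHA)2 and once each before PRM6 and PRM2, and it was not found in this window before HPF1. Over all tested protein-coding genes, 411 of 5734 such windows (7.17%) held it at least once. Among genes called higher in kar4Δ and at least 2-fold apart, 104 of 455 (22.9%) held it, and among those at least 8-fold higher, 24 of 64 (37.5%). Of the genes called lower and at least 2-fold apart, 6 of 315 (1.90%) held it. Of the 12 largest differences in favour of kar4Δ, PRM3 also held it once, while FIG1, STE12, YGR109W-A and YIL082W-A had none in their windows. Of the 12 largest in the other direction, KAR4 held it 2 times and CYC7 once, and the others had none. A match describes letters, not binding.

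Genes of cell fusion stood among the largest differences, and all 5 of the list rose in kar4Δ relative to ste12Δ, with a median log2 fold change of 5.93, against -0.04 over all features. FIG1 (YBR040W, chromosome II, 316968 to 317864, R64), a membrane protein of calcium influx and cell fusion, had 375, 382, 298 and 332 CPM in the 4 kar4Δ libraries and 0.685, 0.408, 1.13 and 0.976 CPM in the 4 ste12Δ libraries, with 555 ± 49.1 CPM in WT. PRM1 (YNL279W, chromosome XIV, 110917 to 112902, R64), which helps fuse the plasma membranes, had 1032, 946, 797 and 821 CPM in kar4Δ and 3.0, 2.72, 4.42 and 4.88 CPM in ste12Δ, with 1230 ± 76.2 CPM in WT. Every kar4Δ library was thus far above every ste12Δ library, by 8.79 ± 0.20 for FIG1 and 7.92 ± 0.24 for PRM1 on the log2 scale (adjusted p = 1.86e-20 and 1.30e-18). FUS1, a membrane protein needed to remove the wall between mating cells, had 999.7, 981, 786 and 764 CPM in kar4Δ and 14.1, 19.9, 19.7 and 20.7 CPM in ste12Δ, a difference of 5.56 ± 0.16 (adjusted p = 6.80e-19). FUS2, its cytoplasmic counterpart, had 576, 549, 491 and 480.3 CPM in kar4Δ and 7.19, 8.99, 9.2 and 8.88 CPM in ste12Δ, a difference of 5.93 ± 0.16 (adjusted p = 2.52e-19). RVS161, the amphiphysin-like partner of Fus2, had the least difference of the list at 1.34 ± 0.08. Set beside WT, whose comparison shares the kar4Δ libraries, FUS1 and FUS2 in kar4Δ did not pass the test (log2 differences of 0.10 with a 95% interval of -0.17 to 0.36, and -0.09 with -0.35 to 0.16), while FIG1, PRM1 and RVS161 were below WT by 0.68, 0.46 and 0.60.

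**Figure D3:**
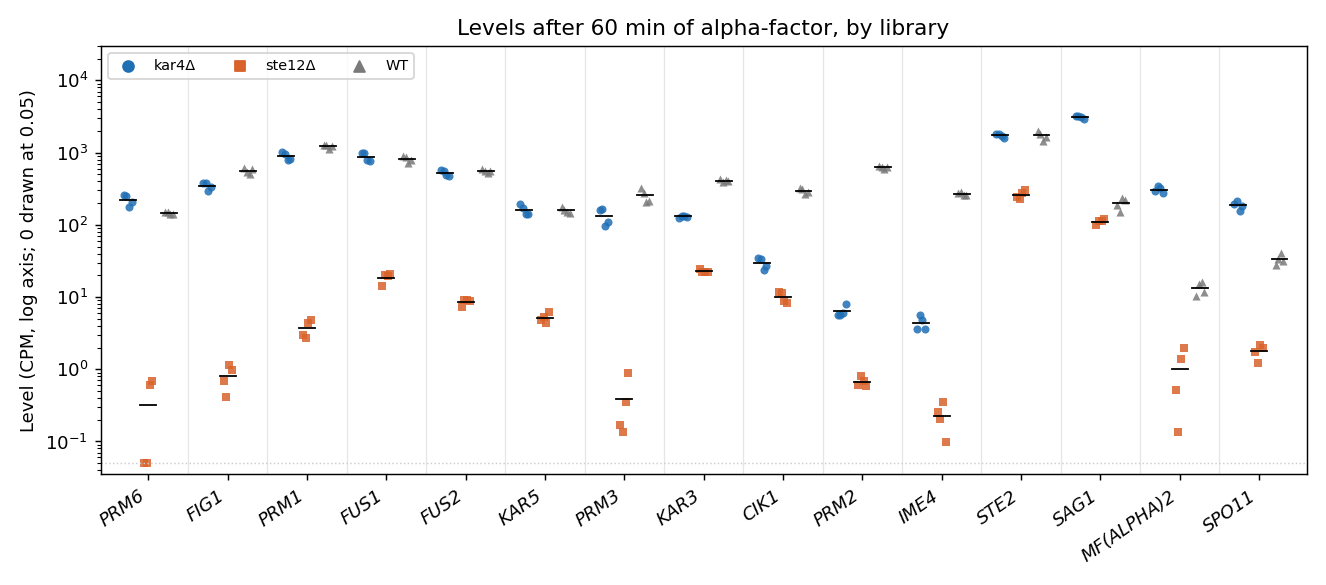
Level of 15 genes after alpha-factor (CPM, log axis) in kar4Δ (blue circles), ste12Δ (orange squares) and WT (grey triangles), 1 point per library, with the mean of 4 libraries as a bar and values of 0 drawn at 0.05. In kar4Δ the cell fusion genes stand at or below WT and far above ste12Δ, KAR3, CIK1, PRM2 and IME4 stand between ste12Δ and WT, and SAG1, MF(ALPHA)2 and SPO11 stand above WT.

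Nuclear fusion genes differed from each other in their level in kar4Δ relative to WT. Of 11, 2 were above WT (BIM1 by 0.69 and KAR9 by 0.39), a share near the 16.8% of all features. Below WT were 4 (PRM2, CIK1, KAR3 and PRM3), against 21.1% of all features, and 5 were not called. Of the 11 genes of the list, 9 rose in kar4Δ relative to ste12Δ, 1 fell and 1 did not pass the test (8, 1 and 2 with library totals, where KAR2 turned to -0.10), and the median was 1.55. KAR5, a membrane protein that fuses the nuclear envelopes, had 192, 173, 139.9 and 141 CPM in kar4Δ and 4.79, 5.31, 4.42 and 6.24 CPM in ste12Δ, a difference of 4.96 ± 0.13 (adjusted p = 2.52e-19). Its level in kar4Δ was not told apart from that in WT (158 ± 12.6 CPM; log2 difference 0.02, 95% interval -0.20 to 0.23). PRM3, which acts in the same fusion step, had 162, 167, 97.3 and 109.9 CPM in kar4Δ and 0.171, 0.136, 0.347 and 0.878 CPM in ste12Δ, with 255 ± 54.2 CPM in WT. The kar4Δ level was far above ste12Δ (8.51 ± 0.27; adjusted p = 4.19e-18) and below WT by 0.94.

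The kinesin-14 Kar3 and its partner Cik1, which draw the nuclei together along microtubules, showed a part of the WT level. KAR3 had 126, 133, 133 and 129.6 CPM in kar4Δ and 24.1, 22.1, 21.9 and 22.5 CPM in ste12Δ, and WT had 410.1 ± 15.7 CPM. CIK1 had 34.9, 33.3, 23.6 and 26.6 CPM in kar4Δ and 11.6, 11.3, 8.94 and 8.29 CPM in ste12Δ, and WT had 297 ± 27.7 CPM. Relative to ste12Δ, KAR3 was higher by 2.52 ± 0.09 (adjusted p = 1.92e-17) and CIK1 by 1.55 ± 0.08 (adjusted p = 1.00e-13), while relative to WT they were lower by 1.65 and 3.34. PRM2, a pheromone-regulated membrane protein needed for karyogamy, had 5.7, 5.66, 6.09 and 8.11 CPM in kar4Δ and 0.599, 0.817, 0.694 and 0.585 CPM in ste12Δ, against 633 ± 24.9 CPM in WT. It was the member farthest below WT (-6.61), yet the kar4Δ libraries were all above the ste12Δ libraries (3.22 ± 0.30; adjusted p = 2.49e-09). The mRNA methyltransferase gene IME4, a gene of the meiosis list, had the same order, with 3.6, 5.66, 4.79 and 3.6 CPM in kar4Δ, 0.257, 0.204, 0.347 and 0.0976 CPM in ste12Δ and 269 ± 10.3 CPM in WT. By pooled counts it was 19.1-fold higher in kar4Δ than in ste12Δ, with a 95% counting interval of 10.3-fold to 39.3-fold.

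Among the other nuclear fusion genes, BIM1, a microtubule plus-end protein, was higher in kar4Δ by 1.82 ± 0.07, and KAR9, which links it to actin cables, by 0.71 ± 0.08. The ER chaperones JEM1 and KAR2 differed by 0.60 ± 0.08 and 0.28 ± 0.07. KAR1, of the spindle pole body, fell by 0.38, but its libraries overlapped, and the call was lost in batch 2 alone (-0.30) and without replicate 3 of kar4Δ (-0.32) or replicate 1, 2 or 3 of ste12Δ (-0.30, -0.34 and -0.35). VIK1, the other partner of Kar3, had 0.27 ± 0.12 (95% interval 0.02 to 0.51, adjusted p = 0.0501).

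Of the other 7 PRM genes, named for regulation by pheromone, 6 rose and 1 fell. PRM6, of low-affinity potassium transport, had 257, 250.3, 177 and 204 CPM in kar4Δ and 0, 0, 0.607 and 0.683 CPM in ste12Δ, where 2 libraries had no count of it, and 146 ± 7.38 CPM in WT. Its fitted difference of 9.51 ± 0.30 (adjusted p = 3.40e-18) rests on 0 to 7 counts per ste12Δ library, and its level in kar4Δ was above WT by 0.59. PRM4, PRM8, PRM5, PRM10 and PRM9 were higher in kar4Δ than in ste12Δ by 3.59, 2.54, 1.86, 1.30 and 0.93, and all 5 were below WT, by 0.44 to 1.44. PRM7 ran the other way, with 108, 135, 185 and 125 CPM in kar4Δ and 565, 534, 537 and 638 CPM in ste12Δ (-2.08 ± 0.32; adjusted p = 3.94e-06). Its level in WT lay between the strains, at 294 ± 48.1 CPM.

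The genes that carry the signal were in part higher in kar4Δ than in ste12Δ. Their median difference was 0.45 at 0 h, and their median response was 0.20 in kar4Δ, -0.07 in ste12Δ and 0.18 in WT. Of 11 signalling genes, 6 were called higher in kar4Δ (29.8% of all features) and none lower (36.5% of all features), with a median of 0.93. FUS3, the MAP kinase of the mating pathway, had 775, 758, 783 and 749.6 CPM in kar4Δ and 55.8, 53.7, 71.4 and 66.7 CPM in ste12Δ, with 401 ± 21.9 CPM in WT, so that it was above both (3.63 ± 0.08 against ste12Δ, adjusted p = 1.43e-20; 0.93 against WT). The receptor gene STE2 had 1830, 1806, 1686 and 1607 CPM in kar4Δ and 239.7, 226, 280.0 and 304 CPM in ste12Δ (2.71 ± 0.13; adjusted p = 1.90e-14). The G protein genes GPA1, STE18 and STE4 differed by 2.32, 2.28 and 1.45, and KSS1, the other MAP kinase, by 0.93. The scaffold and upstream kinase genes STE5, STE7, STE11, STE20 and STE50 did not pass the test, with differences between -0.05 and 0.07 and the widest interval at -0.15 to 0.25, whereas with library totals these 5 were called lower.

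Among the transcription factors, DIG2, an inhibitor of Ste12, had 128, 134, 129.8 and 120.4 CPM in kar4Δ and 16.1, 17.6, 16.4 and 17.8 CPM in ste12Δ (2.92 ± 0.08; adjusted p = 2.52e-19), and DIG1, the other inhibitor, was higher by 0.71 ± 0.05. TEC1, the partner of Ste12 in filamentous growth, was higher by 3.17 ± 0.09 (adjusted p = 8.40e-19). All 4 tested genes of the filamentous growth list rose (TEC1, FLO11, KSS1 and MSB2), and FLO11, a wall adhesin, was at 276 ± 26.9 CPM in kar4Δ, 75.4 ± 17.4 CPM in ste12Δ and 106 ± 10.1 CPM in WT. MCM1 fell by 0.23, but the call was lost in batch 2 alone (-0.14) and without replicate 1 of ste12Δ (-0.18).

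Of 6 genes that dampen the response, 5 rose and PTP3, a tyrosine phosphatase, fell by 0.56. SST2, which switches off the G protein, had 1464, 1461, 1472 and 1432 CPM in kar4Δ and 52, 60.0, 75.7 and 78 CPM in ste12Δ (4.47 ± 0.13; adjusted p = 6.80e-19), and its kar4Δ level was not told apart from WT (log2 difference 0.20, 95% interval -0.03 to 0.42). MSG5, a phosphatase of Fus3, had 162 ± 6.29 CPM in kar4Δ and 75 ± 3.96 CPM in ste12Δ, and at 342 ± 14.2 CPM WT was above both. AFR1, a regulator of the receptor, showed the same order, with 243 ± 18.2 CPM in kar4Δ, 91.9 ± 2.82 CPM in ste12Δ and 428 ± 10.3 CPM in WT. PTP2, a phosphatase of MAP kinases, rose by 0.69 ± 0.07, and ASG7, also an a-specific gene, is given with those genes.

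Genes that define a cells differed between the strains before pheromone as well as after it. All 6 tested a-specific genes were higher in kar4Δ after alpha-factor (ASG7, AGA2, MFA1, MFA2, STE2 and STE6; median 3.10), and their median difference at 0 h was already 2.99. For STE2 the 0 h levels were 1582 ± 283 CPM in kar4Δ, 365 ± 16.5 CPM in ste12Δ and 1567 ± 269.9 CPM in WT. ASG7, which adjusts signalling in zygotes, changed most with pheromone, with 513, 506, 362 and 388 CPM in kar4Δ and 1.88, 1.09, 5.47 and 5.17 CPM in ste12Δ (7.06 ± 0.34; adjusted p = 1.23e-14). The a-factor precursor gene MFA1 stood at 26.4, 21.6, 91.8 and 113 CPM in the 4 ste12Δ libraries, with both batch 2 libraries above both batch 1 libraries, against 582, 606, 592 and 474 CPM in kar4Δ. The agglutinin genes AGA1 and AGA2 and the related adhesin gene FIG2 rose by 4.29, 4.09 and 5.99. FIG2 had 17096, 17281, 16168 and 14765 CPM in kar4Δ and 222, 246, 265 and 297 CPM in ste12Δ, and its kar4Δ level was not told apart from WT (log2 difference -0.21, 95% interval -0.50 to 0.09). Among genes for a-factor maturation, STE14, the methyltransferase, rose by 2.72 ± 0.09 and AXL1, a protease, by 1.83 ± 0.07, while STE23, a related protease, fell by 0.47. Of that list of 8, 5 rose and 1 fell (3 and 3 with library totals), beside 29.8% and 36.5% of all features.

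Genes of the opposite mating type were higher in kar4Δ than in both other strains. All 5 alpha-specific genes rose relative to ste12Δ, with a median of 4.82, and all 5 were also called above WT, a comparison that shares the kar4Δ libraries. MF(ALPHA)2, a gene for alpha-factor itself, had 294, 342, 322 and 274 CPM in kar4Δ and 0.513, 0.136, 1.39 and 1.95 CPM in ste12Δ, with 13.3 ± 2.68 CPM in WT. SAG1, the alpha-agglutinin gene, had 3202, 3196, 3128 and 2928 CPM in kar4Δ and 97.9, 113, 113 and 120.0 CPM in ste12Δ, with 199 ± 35.4 CPM in WT. The kar4Δ libraries stood apart from all others in both genes, with differences from ste12Δ of 8.38 ± 0.40 and 4.82 ± 0.12 (adjusted p = 9.34e-15 and 4.50e-20) and from WT of 4.49 and 3.98. AFB1, the a-factor barrier gene, STE3, the a-factor receptor gene, and MF(ALPHA)1, the main alpha-factor gene, were higher in kar4Δ than in ste12Δ by 5.67, 4.55 and 3.52. The summed level of these 5 genes was 3409 to 3804 CPM in kar4Δ, 104 to 131 CPM in ste12Δ and 219 to 298 CPM in WT. MATALPHA1, which defines alpha cells, had 2 to 4 counts per kar4Δ library, 4 to 6 per ste12Δ library and 3 to 5 per WT library. The a1 gene, annotated at the silent locus HMR and also carried at MAT by a cells, had 191 to 271 counts in kar4Δ and 181 to 236 in ste12Δ.

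Some genes outside the mating lists were also highest in kar4Δ. SPO11, which makes the DNA breaks of meiotic recombination, had 197, 215, 156 and 185 CPM in kar4Δ and 1.71, 1.23, 2.17 and 1.95 CPM in ste12Δ, with 33.5 ± 5.3 CPM in WT. Among features of the same minimum level, it also had the largest difference between the responses of both strains to alpha-factor, 5.60 ± 0.31 (adjusted p = 1.51e-12). The window of SPO11 before the start codon held TGAAACA 2 times. The next largest response differences were those of tH(GUG)E2 (4.89 ± 1.09), PRM3 (4.76 ± 0.83), YNL042W-B (4.60 ± 0.74), which overlaps a non-coding gene, and YGR109W-A (4.41 ± 0.74). Of the 15 meiosis genes, 5 rose (SPO11, IME4, RME1, MUM2 and HOP1) and 5 fell, among them IME1, the regulator of entry into meiosis, by 1.01. These shares were near those of all features (29.8% higher and 36.5% lower), and with library totals 4 rose and 8 fell. MED6, a Mediator subunit, SAS3, a histone acetyltransferase, and YOR381W-A, chosen after their values were seen, had 264 ± 50.7, 328 ± 35.5 and 62.2 ± 6.0 CPM in kar4Δ, 17.9 ± 2.23, 32.5 ± 4.05 and 1.33 ± 0.487 CPM in ste12Δ, and 22.7 ± 4.44, 48.8 ± 2.32 and 1.94 ± 0.477 CPM in WT. The window of MED6 held the heptamer once, and those of SAS3 and YOR381W-A did not hold it.

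Ty3, a retrotransposon that inserts next to tRNA genes and is known to be induced by pheromone, was also higher in kar4Δ. Its 4 features, whose copies share reads and overlap each other, rose by 7.04 to 11.56 on the log2 scale. YGR109W-A, the gag part of one copy, had 2995, 3568, 1951 and 2170 CPM in kar4Δ and 0.342, 0.34, 1.04 and 1.95 CPM in ste12Δ, with 6023 ± 1335 CPM in WT (11.56 ± 0.39 against ste12Δ, adjusted p = 1.01e-17; -1.19 against WT). All 4 features were below WT in kar4Δ. The tRNA features tR(UCU)G3, tI(AAU)I2 and tH(GUG)E2 had 1938, 611 and 451 counts in all in kar4Δ and 10, 3 and 5 in ste12Δ, which by pooled counts gave 316-fold (172 to 660), 332-fold (113 to 1620) and 147-fold (62.6 to 455) with 95% counting intervals. How the authors' counting divided reads between Ty3 and the tRNA genes beside it is not given in the sources used here.

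Polarity genes were mixed: of 12, 8 rose and 2 fell (6 and 4 with library totals), beside 29.8% and 36.5% of all features. FAR1, the Cdk inhibitor that also orients growth, had 1097, 1068, 893 and 882 CPM in kar4Δ and 15.5, 12.5, 26.6 and 34.2 CPM in ste12Δ (5.47 ± 0.25; adjusted p = 4.42e-15). Its level in kar4Δ was not told apart from WT (820.2 ± 55.9 CPM; log2 difference 0.26, 95% interval -0.15 to 0.68). CHS1, a chitin synthase, rose by 2.17 ± 0.13, the wall sensor gene MID2 by 1.40 ± 0.11, the Cdc42 effector gene GIC2 by 1.19 ± 0.12 and CDC42 by 0.83 ± 0.10. BNI1, a formin, and SPA2, of the polarisome, fell by 0.57 and 0.25.

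The cell cycle genes differed in both directions. Of 14 G1/S genes 7 rose and 6 fell (3 and 6 with library totals), beside 29.8% and 36.5% of all features. PCL2, a cyclin of the Pho85 kinase, had 208 ± 22.6 CPM in kar4Δ and 25.2 ± 6.96 CPM in ste12Δ, with 597 ± 28.6 CPM in WT. The S-phase cyclin gene CLB6 had 2.25, 3.96, 2.76 and 1.91 CPM in kar4Δ and 14.5, 12.5, 30.1 and 26.3 CPM in ste12Δ, with 2.61 ± 1.1 CPM in WT (-2.91 ± 0.26 against ste12Δ; adjusted p = 8.26e-10). CLB5, RNR1, PCL1 and SWI4 fell too, by 0.77, 0.95, 1.95 and 0.59. Of the G1 cyclin genes listed in the genotype, CLN1 fell by 1.29 and CLN2 differed by -0.06 ± 0.09 (95% interval -0.24 to 0.12; -0.44 and called lower with library totals). CLN3, whose product sets the G1 arrest of these strains, had 70.8, 64.4, 50.5 and 57.8 CPM in kar4Δ and 111, 123, 119 and 116 CPM in ste12Δ, with 92.8 ± 31.6 CPM in WT (-0.94 ± 0.17 against ste12Δ; adjusted p = 4.73e-05). The part of CLN3 in the cell cycle differences was not tested. Of 10 mitosis genes 7 rose and 1 fell (5 and 2 with library totals), beside the same 29.8% and 36.5% of all features. CDC20, an activator of the anaphase-promoting complex, was at 118 ± 5.01 CPM in kar4Δ and 27.8 ± 1.23 CPM in ste12Δ. The cyclin genes CLB4 and CLB2 were higher by 1.76 and 0.92. Of 11 genes for daughter cell separation, 6 rose and 2 fell (4 and 4 with library totals), beside the same shares. NIS1, a bud neck protein, the chitinase gene CTS1 and AMN1, an inhibitor of mitotic exit, rose by 3.56, 3.11 and 2.70. No histone gene rose and 3 of 8 fell (6 of 8 with library totals), a share near the 36.5% of all features called lower.

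The genes lower in kar4Δ than in ste12Δ differed by less. Among features of the same minimum level, the 12 largest differences in this direction were KAR4 itself and then CMI8, a gene beside MFA1, HPF1, NCA3, DDR2, LYS20, TIR3, CYC7, CTR1, CLB6, MNN1 and INA1, the last 11 between -3.82 and -2.84. HPF1, a mannoprotein of the wall, had 9.3, 22.1, 12.9 and 13.6 CPM in kar4Δ and 161, 213, 195 and 169 CPM in ste12Δ (-3.67 ± 0.19; adjusted p = 5.39e-14), and its kar4Δ level was not told apart from WT (log2 difference -0.11, 95% interval -0.55 to 0.33). This difference was there at 0 h, when HPF1 averaged 27.4 ± 3.42 CPM in kar4Δ, 174 ± 23.5 CPM in ste12Δ and 42.8 ± 9.1 CPM in WT. MNN1, a mannosyltransferase, had 48.6, 83.5, 71.3 and 62.7 CPM in kar4Δ and 495, 402, 535 and 513 CPM in ste12Δ (-2.87 ± 0.14; adjusted p = 9.14e-15), and at 0 h it averaged 298 ± 20.3 CPM in kar4Δ and 365 ± 57.3 CPM in ste12Δ. It thus fell with alpha-factor in kar4Δ (response -2.16) and in WT (response -2.44), and rose in ste12Δ (response 0.42). CTR1, the copper transporter gene, likewise had responses of -1.48 in kar4Δ, 1.36 in ste12Δ and -1.08 in WT. LYS20, a homocitrate synthase of lysine synthesis, had 38.3 ± 7.7 CPM in kar4Δ and 326 ± 47.5 CPM in ste12Δ. CYC7, a cytochrome c, had 3.39 ± 0.449 CPM in kar4Δ and 26 ± 4.45 CPM in ste12Δ.

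Ribosome biogenesis and phosphate starvation genes were mostly lower in kar4Δ. All 15 ribosome biogenesis genes fell (median -0.88; all 15 also with library totals), among them HAS1, a helicase, at 86.1 ± 7.6 CPM in kar4Δ and 184 ± 19 CPM in ste12Δ, and RPA190, the large subunit of RNA polymerase I, at 434 ± 31.7 CPM in kar4Δ and 864 ± 115 CPM in ste12Δ. The difference between the responses was also called lower for all 15, against 25.8% of all features. The median response of these 15 was -1.23 in kar4Δ, -0.19 in ste12Δ and -0.58 in WT. Of 12 phosphate starvation genes 10 fell and 1 rose, beside 36.5% and 29.8% of all features. PHO84, the high-affinity phosphate transporter gene, which overlaps a non-coding gene, had 78.3, 113, 167 and 125 CPM in kar4Δ and 762, 794, 776 and 815 CPM in ste12Δ, with 341 ± 32.9 CPM in WT (-2.69 ± 0.18; adjusted p = 3.68e-12). PHO5, an acid phosphatase, fell by 1.99, and PHO89, a sodium-phosphate cotransporter, rose by 0.88 ± 0.21. Cell wall integrity genes divided evenly, with 6 higher (among them CHS3 at 1.46 and the MAP kinase gene SLT2 at 0.98) and 6 lower (among them PIR3 at -1.71 and PIR1 at -1.54). Those counts stand beside the same 29.8% and 36.5% of all features. Of 17 respiration genes 4 fell (23.5%, against 36.5% of all features) and 13 did not pass the test. With library totals 13 of the 17 fell, a scaling under which 3839 of all 6161 features were called lower. Of 4 galactose genes 3 rose (29.8% of all features).

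**Figure D4:**
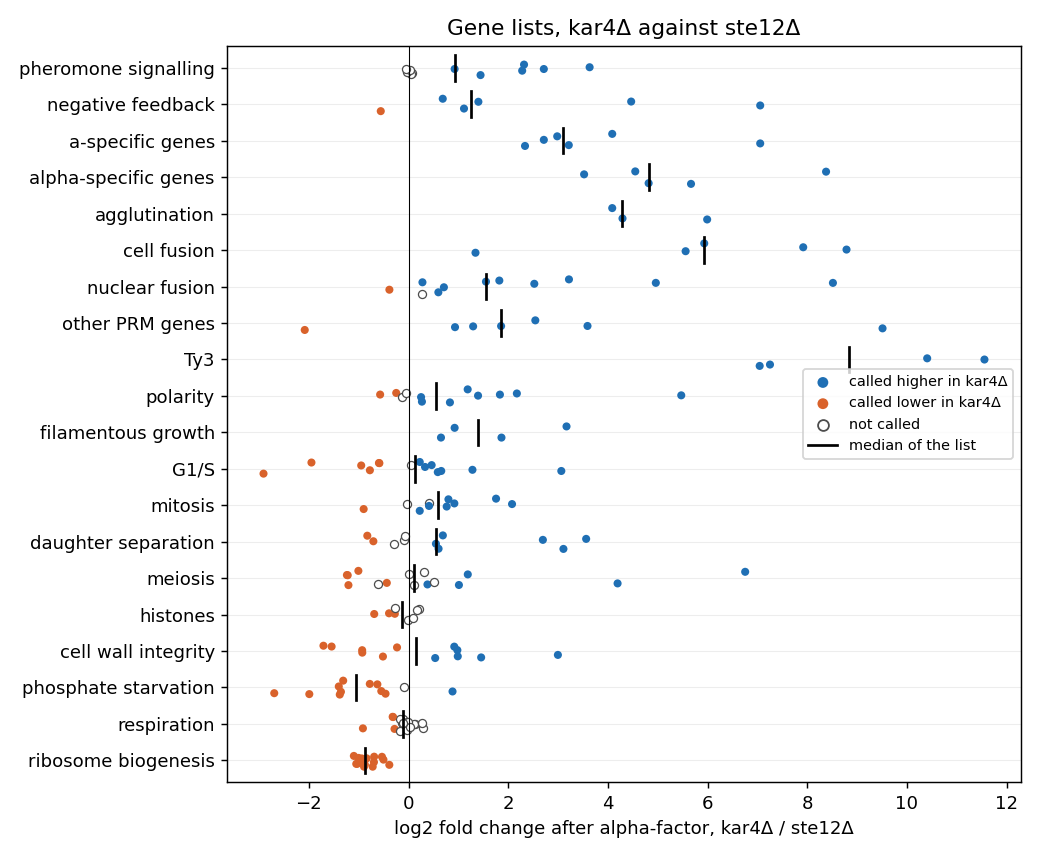
Log2 fold change of kar4Δ over ste12Δ after alpha-factor for the members of 20 gene lists, 1 point per gene, blue for genes called higher in kar4Δ, orange for genes called lower, open for genes not called, with the median of each list as a bar. The mating lists in the upper rows lie to the right, with medians of 4.29 for agglutination, 4.82 for alpha-specific genes and 5.93 for cell fusion, and ribosome biogenesis lies to the left at -0.88.

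How far the response of kar4Δ cells, which have Ste12 without Kar4, reached that of WT was read from a list that shares no library with the comparison: 447 features that rose at least 2-fold (adjusted p under 0.05) after alpha-factor in the WT libraries of batches 3 and 4, or 7.26% of the features tested. Of these, 338 (75.6%) were called higher in kar4Δ than in ste12Δ, against 29.8% of all features, 29 were called lower (36.5% of all features) and 80 were not called. At least 2-fold higher were 213, against 8.13% of all features. The median difference was 0.94, against -0.04 over all features. With library totals 277 were called higher and 56 lower. The difference between the responses of both strains was called higher in kar4Δ for 335 of the 447, against 23.1% of all features, and lower for 3.

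In kar4Δ the 447 features had a median response of 1.33 on the log2 scale, in ste12Δ of 0.27 and in WT of 1.52. Over all features the median responses were -0.00185, 0.00892 and -0.00165, in that order. At least 2-fold were 316 of the 447 features in kar4Δ, 41 in ste12Δ and 350 in WT, a count that was not made over all features. The 316 include the deleted KAR4, whose response of 4.06 in kar4Δ rests on 6 counts in all after alpha-factor. KAR4 also counts among the list members called lower in kar4Δ than in ste12Δ and than in WT. At 0 h the median of kar4Δ against ste12Δ over the list was -0.04, with single members far from it (FIG1 at 4.47, YGR109W-A at 7.15). Compared with WT after alpha-factor, 92 of the 447 were higher in kar4Δ (16.8% of all features), 180 were lower (21.1%) and 175 were not called, with a median of -0.21. In ste12Δ 5 were higher than in WT (30.9% of all features), 383 were lower (28.2%) and 59 were not called, with a median of -1.16. These 2 comparisons share the WT libraries. The heptamer TGAAACA was in the window of 40 of the 314 protein-coding members called higher in kar4Δ (12.7%) and of 4 of the 99 others (4.04%).

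**Figure D5:**
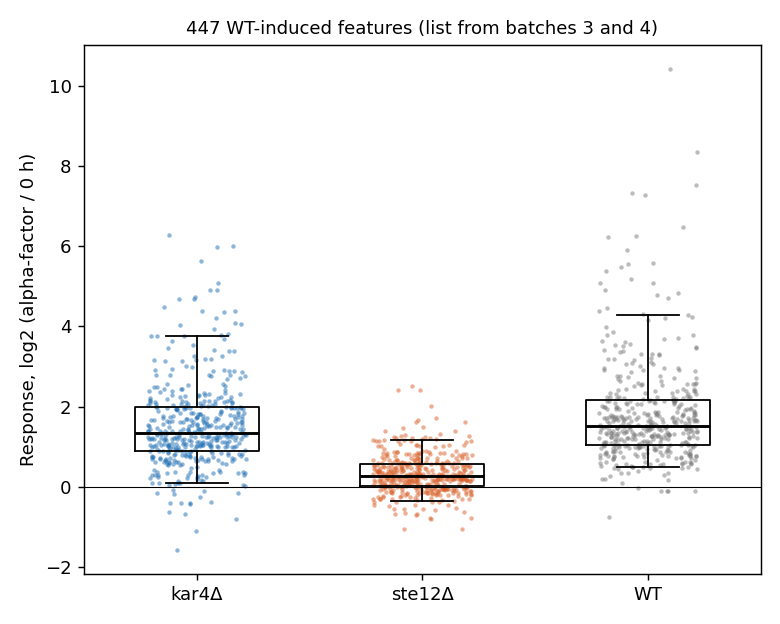
Response to alpha-factor (log2 of treated over 0 h) of the 447 features induced in WT of batches 3 and 4, 1 point per feature, in kar4Δ, ste12Δ and WT of batches 1 and 2. Boxes span the quartiles, lines in them are medians and whiskers run from the 5th to the 95th percentile. The median is 1.33 in kar4Δ, 0.27 in ste12Δ and 1.52 in WT.

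Part of the difference between the strains was present at 0 h, to an extent that depended on the gene group. The difference between the responses was called higher in kar4Δ for 23.1% of all features, beside which the counts below are to be read. For cell fusion genes the median of kar4Δ against ste12Δ was 3.64 at 0 h and 5.93 after alpha-factor, and the difference between the responses was called higher in kar4Δ for 5 of 5. For agglutination genes the medians were 3.65 at 0 h and 4.29 after alpha-factor, and it was called for 1 of 3 (FIG2, at 2.77 ± 0.20). For a-specific genes they were 2.99 and 3.10, with 4 of 6 called higher. Nuclear fusion genes had medians of 0.47 at 0 h and 1.55 after alpha-factor, with 9 of 11 called higher and the largest difference at PRM3 (4.76 ± 0.83; adjusted p = 4.82e-05). Alpha-specific genes had medians of 4.05 at 0 h and 4.82 after alpha-factor, with 4 of 5 called higher. SAG1 had responses of 2.68 in kar4Δ, 0.28 in ste12Δ and -0.56 in WT. The 0 h levels of SAG1 were 488 ± 85.3 CPM in kar4Δ, 91.2 ± 7.8 CPM in ste12Δ and 292 ± 21.2 CPM in WT.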

How the data were processed

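RNA was sequenced in 50 nt reads. The values are expected counts per feature (7127 features in 44 columns), deposited by the authors with no normalization; 24.5% of the values are whole, and they were rounded to whole numbers. The submitters' processing notes name STAR, featureCounts and sacCer3; the annotation, the versions and the use of strand are not given in the sources used here, so overlapping genes and near-identical copies (Ty3, tRNA, PHO11 and PHO12) are uncertain. Of the features, 6050 were matched to the R64 reference, which has the sacCer3 coordinates, and 1077 were not. The members and gene lists were chosen with earlier results of these data known.

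edgeR 4.0.16 in R 4.3.3 was fitted to the 24 libraries of batches 1 and 2 (6 groups of 4, batch as a term) after filterByExpr (minimum count 10, total 15) and TMM scaling, with the quasi-likelihood test and Benjamini-Hochberg adjustment over 6161 features. A feature was called at an adjusted p under 0.05. SE is the log2 fold change divided by the square root of F, and intervals are 95%. Ratios of pooled counts carry exact 95% intervals for counting error only. The list of WT-induced genes came from the WT libraries of batches 3 and 4, where 8 pairs of columns of batch 3 differed by less than sampling noise and were counted as 1 library each, which left 36 libraries. Genes named were the 12 largest differences in each direction and the 5 largest response differences among features with a mean log2 CPM of at least 1, and members of the lists. Scripts were tested on simulated data. The alternatives were other scalings, no filter, DESeq2 1.42.0, no batch term, the compared groups alone, a replicate block, each batch alone, each library left out, other sources of the WT list and 2 chosen after seeing the data: no Ty3, rRNA or tRNA features, and no feature that is not protein-coding. The values of 1 gene of the mitosis list are not reported here.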

Additional observations from a re-analysis of the deposited data

Results flagged for a closer look

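After alpha-factor, 5 of 246 groups of 4 libraries checked for the genes named held a library far from the other 3, where chance alone gives about 1 in 20. All 5 were ste12Δ libraries. FUS1 was lowest in replicate 1, at 14.1 CPM, with the next library at 19.7 CPM. FUS2 was lowest in the same library, at 7.19 CPM, with the next at 8.88 CPM. PCL1 was lowest in replicate 2, at 7.35 CPM, with the next at 8.22 CPM. CTS1 and EGT2, genes of daughter cell separation, were highest in that library, at 167 CPM against 109 CPM in the next for CTS1 and at 108 CPM against 65.6 CPM in the next for EGT2. For 3 genes the difference between kar4Δ and ste12Δ had opposite signs after alpha-factor and at 0 h, and the difference between the responses was called. PTP2, a phosphatase of MAP kinases, had 0.69 after alpha-factor and -0.36 at 0 h, a difference of 1.05. PRY3, a wall protein of the daughter separation list, had 0.60 and -1.80, a difference of 2.40. GAR1, of ribosome biogenesis, had -0.39 and 0.31, a difference of -0.70.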

How the results depend on the processing

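The 4 counts of calls kept within 1.5 times their main value under every alternative run. Features called between kar4Δ and ste12Δ after alpha-factor (4084) numbered between 3578 without a batch term and 4683 with library totals, those at least 2-fold apart (856) between 766 in protein-coding genes alone and 1280 with library totals, response differences (3013) between 2244 in batch 1 alone and 3095 with library totals, and WT-induced genes called higher (338) between 277 with library totals and 361 with the list taken from batch 4 alone. Leaving out 1 library gave 3848 to 3984, 822 to 903, 2746 to 2997 and 331 to 342. The split into higher and lower moved with the scaling: 844 and 3839 with library totals and 1942 and 2115 with DESeq2's size factors, against 1835 and 2249 with TMM, and 819 and 2276 response differences with library totals, against 1426 and 1587. Of 123 genes named, signs reversed with library totals alone for STE11 (-0.36, adjusted p = 0.000412), STE20 (-0.32, adjusted p = 0.000632), STE50 (-0.33, adjusted p = 0.00684) and KAR2 (-0.10, adjusted p = 0.279), and calls were lost in 1 or more alternatives for MCM1, KAR1, PRY3 and GAR1 and gained for STE5, STE7, VIK1 and CLN2. The cause was not tested.

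A replicate block called 4065 features, 866 at least 2-fold apart, 2971 response differences and 341 WT-induced genes higher, and changed no call of the genes named. The numbers mark batches (1 and 2, 3 and 4) but did not pair libraries within a batch, where deviations of same-numbered libraries correlated at -0.11 and -0.36.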
